A study of Mus musculus with 23 samples.

Results

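Conditional knockout of Slm2 was compared with wild type in CamK pyramidal cells, one of the neuronal populations of the mouse hippocampus in this study. The members are the libraries whose titles carry the name CamK: 3 from Slm2 conditional knockouts (cKO; sample numbers 4, 5 and 6) and 4 from wild type (WT; numbers 2, 3, 4 and 5), which makes 7 of the 23 libraries in the series. All were polyadenylated RNA from hippocampus, described as excitatory pyramidal cells, and the study asked how gene expression and splicing differ between the genotypes. The other libraries are 8 named Grik (pyramidal cells) and 8 named SST (somatostatin-positive interneurons), each with both genotypes. The Cre driver, the deleted exons, the age and sex of the mice, the way the cells were isolated and whether libraries came from separate mice are not stated in the sources used here. P-values therefore measure only the spread between these samples. Gene totals were 88356237 to 91036949 reads per library. Levels are counts per 1000000 gene reads (CPM), and a log2 fold change is always cKO minus WT.

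Slm2 is the protein of Khdrbs3. With Sam68, encoded by Khdrbs1, and Slm1, encoded by Khdrbs2, it forms a family of nuclear RNA-binding proteins. They bind through a STAR domain, which contains a KH domain, and choose between alternative exons. Neurexins, presynaptic adhesion proteins whose isoforms select different postsynaptic partners, are known exon targets. Members of the family are also known to regulate each other's RNA, and quaking (Qk) is a more distant STAR protein of glia and other cells. Counts per gene do not show which exons were used, so exon choice was not analysed here.

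A stretch of coding sequence is shown because it lets a reader see how alike the members whose levels moved are. The lines give 90 bases of each coding sequence, read from the GENCODE M21 annotation of GRCm38 (5′ to 3′ along the gene, spanning parts of exons 3 and 4). Capitals mark the positions at which the 3 genes are not all identical.
Khdrbs3, plus strand, chr15:69013410-69017352: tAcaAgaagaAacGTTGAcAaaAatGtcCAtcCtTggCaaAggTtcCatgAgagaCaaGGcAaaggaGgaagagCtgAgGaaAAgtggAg
Khdrbs1, minus strand, chr4:129725698-129727619: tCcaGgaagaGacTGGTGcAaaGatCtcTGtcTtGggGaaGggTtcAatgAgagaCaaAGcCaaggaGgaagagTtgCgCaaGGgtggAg
Khdrbs2, plus strand, chr1:32333518-32414895: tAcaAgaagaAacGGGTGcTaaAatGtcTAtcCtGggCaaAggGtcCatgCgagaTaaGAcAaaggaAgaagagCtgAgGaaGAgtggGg
In this window 59 of 90 positions were identical in all 3 genes. Khdrbs2 matched Khdrbs3 at 84.4% of positions and Khdrbs1 matched it at 73.3%. Across all annotated transcripts of the 3 genes, the longest runs Khdrbs3 shared with Khdrbs1 and with Khdrbs2 were 15 and 16 bases. The longest run shared by Khdrbs1 and Khdrbs2 was 29 bases, and no run of 31 bases was shared.

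The targeted gene was lower, and both close relatives were higher, in every cKO library than in any WT library. Khdrbs3 (ENSMUSG00000022332, chr15:68928420-69101211) stood at 294, 291 and 249 CPM in cKO 4, 5 and 6, and at 367, 356, 413 and 356 CPM in WT 2, 3, 4 and 5. That was 0.745 of the WT level, or -0.42 on the log2 scale (SE 0.08), and it missed the threshold in edgeR (adjusted p 0.114), whereas DESeq2 and limma-voom called it lower (adjusted p 0.00293 and 0.0207). These counts cover the whole gene, including exons that remain transcribed after a deletion, so they check the knockout only in part. It overlaps 1 other annotated gene.

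Khdrbs2 (ENSMUSG00000026058, chr1:32172714-32658568), the Slm1 gene, was the gene with the smallest p-value of the comparison. It stood at 38.5, 38.0 and 44.0 CPM in cKO 4, 5 and 6, and at 13.4, 15.01, 13.9 and 13.6 CPM in WT 2, 3, 4 and 5. The lowest cKO library was thus well above the highest WT library, and the 4 WT libraries lay close together. Khdrbs2 rose 2.87-fold, or 1.52 on the log2 scale (SE 0.13), with an adjusted p of 3.02e-07 in edgeR. It passed the threshold of 0.05 in every alternative run, with log2 fold changes from 1.45 to 1.63. In the annotation 8 other genes overlap it, and the sources used here do not state the strand setting of the counting.

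Khdrbs1 (ENSMUSG00000028790, chr4:129703164-129742303), the Sam68 gene, stood at 220, 224 and 234 CPM in cKO 4, 5 and 6, and at 152, 157, 162 and 131 CPM in WT 2, 3, 4 and 5. The groups did not overlap, and WT 5 was the lowest library. Khdrbs1 rose by 0.59 on the log2 scale (SE 0.09), with an adjusted p of 0.0111 in edgeR. Its edgeR call was lost without cKO 4, cKO 6 or WT 5, with adjusted p of 0.0597, 0.109 and 0.0569 and log2 fold changes from 0.53 to 0.61. It was also lost with the sample number as a replicate block, the Xist level as a covariate or CamK fitted alone (edgeR adjusted p 0.0963, 0.0687 and 0.102). Qk, the distant relative, overlapped between the groups, at 27.9 to 35.8 CPM in cKO and 25.1 to 35.6 CPM in WT (log2 fold change 0.06, SE 0.12).

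**Figure D1:**
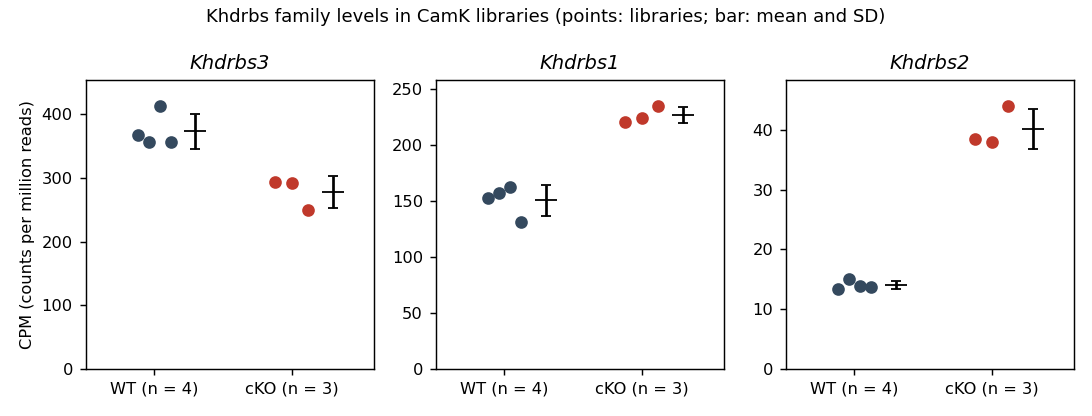
Level of Khdrbs3, Khdrbs1 and Khdrbs2 in CPM (vertical axis, starting at 0) in each CamK library; points are libraries, and the bar beside each group is its mean with 1 SD. The 3 cKO libraries lie below all 4 WT libraries for Khdrbs3 and above them for Khdrbs1 and Khdrbs2.

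Divided by exonic length, the family's members can be set beside each other. In CPM per kilobase, Khdrbs3 was at 101.9 ± 7.4 (SD, n = 4) in WT and 75.9 ± 6.9 (SD, n = 3) in cKO. Khdrbs1 was at 23.4 ± 2.1 in WT and 35.2 ± 1.1 in cKO, and Khdrbs2 was at 1.36 ± 0.068 in WT and 3.90 ± 0.32 in cKO, with the same n. Khdrbs3 RNA was thus the most abundant of the family in both genotypes, and Khdrbs2 the least. On this scale the share of Khdrbs3 in the sum of the family was 78.9 to 81.8% in WT libraries and 62.5 to 67.8% in cKO libraries. The share of Khdrbs1 was 17.1 to 19.9% in WT and 29.0 to 33.6% in cKO, and that of Khdrbs2 was 0.972 to 1.18% in WT and 3.13 to 3.93% in cKO. The sum of the 3 members was 126.7 ± 8.8 in WT and 115.1 ± 5.4 in cKO, and single libraries of the groups lay close to each other, at 119 in WT 5 and 118 in cKO 4 and cKO 5.

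Among all 18823 genes tested, 2 passed the adjusted threshold in edgeR, Khdrbs2 and Khdrbs1, a share of 0.0106%, and no gene was called lower. At an unadjusted p below 0.05 there were 1327 genes (7.05%), of which 680 were higher (3.61%) and 647 lower (3.44%). In 6.75% of all genes the groups did not overlap, 3.35% with all cKO libraries higher and 3.4% with all lower. The median log2 fold change over all genes was -0.0014, and 49.5% of genes were above 0. DESeq2 called 16 genes (0.103%), 13 higher and 3 lower, and limma-voom called 6 (0.0319%), 5 higher and 1 lower. The edgeR count was 1 without cKO 4, without cKO 6 or without WT 5, 4 without cKO 5 and 3 without WT 2. The first principal component within CamK held 21.3% of the variance and the second 19.7%, and neither separated the genotypes: cKO 5 lay at one end of the first and WT 4 at the other.

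**Figure D2:**
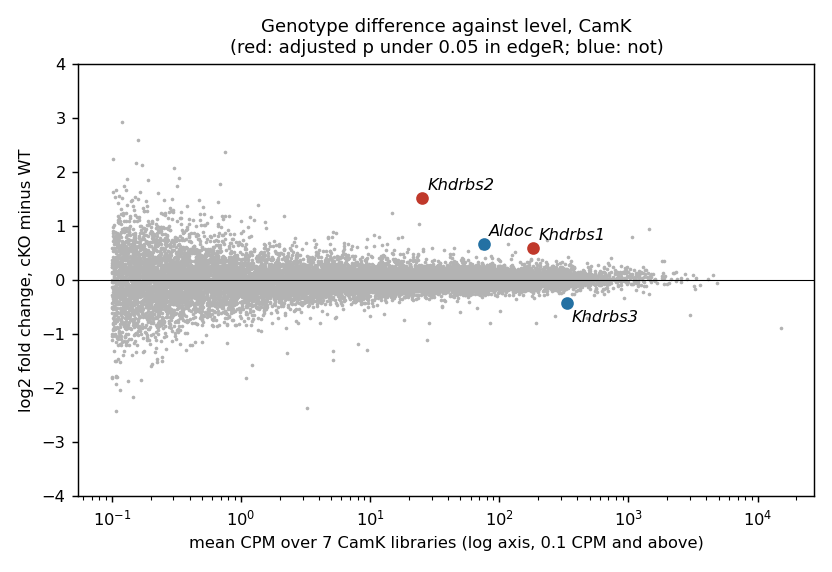
Log2 fold change (vertical axis, cKO minus WT) against mean level in CPM over the 7 CamK libraries (horizontal log axis) for genes with a mean of at least 0.1 CPM; each small grey point is a gene. Khdrbs2 and Khdrbs1 (red) are the genes called by edgeR, and Khdrbs3 and Aldoc (blue) are named genes whose adjusted p was 0.114 and 0.053.

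Genes that DESeq2 or limma-voom called, at a mean of at least 1 CPM, were mostly higher in cKO. Aldoc (ENSMUSG00000017390), the aldolase of astrocytes and of some neurons, stood at 92.1, 106 and 90.8 CPM in cKO 4, 5 and 6, and at 68.2, 51.5, 55.9 and 67.8 CPM in WT 2, 3, 4 and 5. These groups did not overlap. The difference was 0.66 on the log2 scale (SE 0.12), just short of the edgeR threshold (adjusted p 0.053), and the adjusted p was 0.000522 in DESeq2 and 0.0419 in limma-voom. Il6st, the signalling receptor chain shared by interleukin-6 family cytokines, stood at 24.4 to 26.0 CPM in cKO and 16.3 to 19.6 CPM in WT (log2 fold change 0.43, SE 0.09, edgeR adjusted p 0.255, DESeq2 adjusted p 0.0148). Tshz3, a zinc-finger transcription factor, was at 27.1 to 36.1 CPM in cKO and 20.4 to 22.8 CPM in WT (0.54, SE 0.13), and had an adjusted p of 0.0435 in DESeq2 and 0.0132 in limma-voom. For both, the groups did not overlap.

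Among the others called by DESeq2, Pygm and Aldh1l1 are enzymes of glycogen breakdown and of folate metabolism that are abundant in astrocytes. Pygm stood at 1.42, 1.72 and 3.15 CPM in cKO 4, 5 and 6, and at 0.395 to 1.12 CPM in WT. Aldh1l1 stood at 2.64, 2.38 and 4.56 CPM in cKO 4, 5 and 6, and at 0.983 to 2.03 CPM in WT. For both, cKO 6 was the highest library. Cckbr, the brain receptor of cholecystokinin, was at 12.3, 8.43 and 14.3 CPM in cKO 4, 5 and 6 and at 6.38 to 8.66 CPM in WT, so cKO 5 lay within the WT range. Pts, an enzyme of tetrahydrobiopterin synthesis, was lower, at 13.9, 14.0 and 14.3 CPM in cKO against 20.3, 18.3, 17.5 and 18.5 CPM in WT (log2 fold change -0.41, SE 0.09, edgeR adjusted p 0.255, DESeq2 adjusted p 0.016). The cKO libraries of Pts lay close together, and all below WT.

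The protein-coding genes with the largest differences among those with a mean of at least 1 CPM, an unadjusted p below 0.05 and no overlap between the groups give a view of size alone. Of those named here, none was called by edgeR except Pygm. It was called only with the sample number as a replicate block (log2 fold change 1.72, adjusted p 0.0204). On the higher side, besides Pygm and Aldh1l1, they included Pltp (a phospholipid transfer protein; log2 fold change 0.97, SE 0.35), Pamr1 (0.87, SE 0.37), Hrh1 (the histamine H1 receptor; 0.79, SE 0.27), Chrm2 (the muscarinic acetylcholine receptor M2; 0.78, SE 0.22) and Timp3 (a tissue inhibitor of metalloproteinases; 0.71, SE 0.24). Chrm2 stood at 5.47 to 6.599 CPM in cKO and 3.05 to 4.47 CPM in WT, and Hrh1 at 6.12 to 7.70 CPM in cKO and 3.29 to 4.15 CPM in WT. Both code for receptors of diffuse modulatory transmitters. On the lower side Mroh7 had the largest difference (-2.36, SE 0.69), but its WT libraries ranged from 0.995 to 10.1 CPM, and WT 5 was next to the cKO libraries at 0.937 to 0.989 CPM. The other lower genes lay between -0.83 (Gm14419) and -0.46 (Oxld1), and included Nfkbiz, an inducible regulator of NF-kappaB (-0.55, SE 0.24), and Nhej1, a DNA end-joining factor (-0.47, SE 0.17).

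Gene lists were described by how many members lay above or below 0 and by their median. No list member outside the family was called in the edgeR fit of all libraries with TMM scaling. In other edgeR fits Aldoc, an astrocyte marker, was called with RLE scaling, with no filter on low counts and without WT 2 (adjusted p 0.0411, 0.0213 and 0.0427), and Flt1, a vascular marker, with the sample number as a replicate block. The clustered protocadherins, neuronal adhesion proteins expressed in combinations that give cells an identity, lay above 0 in 52 of 55 members tested, with a median of 0.25 against -0.0014 over all genes. At an unadjusted p below 0.05 there were 13, all higher (23.6% of the list, against 3.61% higher over all genes), and in 11 the groups did not overlap, with cKO higher (20.0%, against 3.35% of all genes). Pcdhgc5, the C-type gamma isoform expressed apart from the variable exons, stood at 88.9, 111 and 84.1 CPM in cKO 4, 5 and 6 and at 74.4 to 81.7 CPM in WT (log2 fold change 0.29, SE 0.13). Variable isoforms were far lower: Pcdhgb1 was at 5.17 to 7.89 CPM in cKO and 3.201 to 4.86 CPM in WT (0.56, SE 0.16), and Pcdhb2 at 2.98 to 4.85 CPM against 2.03 to 2.89 CPM (0.57, SE 0.17). In these isoforms cKO 5 was the highest library, and 3 members lay below 0, namely Pcdhb7, Pcdhgb2 and Pcdha6.

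The summed level of the clustered protocadherins was 365, 454 and 369 CPM in cKO 4, 5 and 6, and 323 to 345 CPM in WT. Without cKO 5, 46 of 55 members lay above 0, the median was 0.13, and 3 members had an unadjusted p below 0.05, all higher. In that fit 1023 of all 19297 genes had one, counting both directions together. Members of the alpha and gamma clusters share constant exons and overlap each other in the annotation, so how their reads were divided is uncertain, and they are not independent of each other. In Grik and SST the same list had 29 and 41 members above 0, with medians of 0.011 and 0.094. Its difference between CamK and Grik had an unadjusted p below 0.05 in 11 members (6.5% of all genes had one), and none was called after adjustment. For the difference between CamK and SST, 1 member had an unadjusted p below 0.05 (7.85% of all genes had one).

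Axon guidance genes, the ligands and receptors that steer growing axons and later shape synapses, lay above 0 in 60 of 67 tested, with a median of 0.16. At an unadjusted p below 0.05 there were 9 higher and 1 lower (14.9% in both directions together, against 7.05% of all genes). Ephb2, an ephrin receptor of the postsynaptic membrane, stood at 27.9, 25.4 and 28.4 CPM in cKO 4, 5 and 6, and at 19.1, 20.2, 22.8 and 21.9 CPM in WT 2, 3, 4 and 5. Its groups did not overlap (log2 fold change 0.37, SE 0.10, edgeR adjusted p 0.400). Ntn4, a secreted netrin, stood at 2.04 to 2.16 CPM in cKO and 1.03 to 1.90 CPM in WT (0.62, SE 0.21). Unc5d, a netrin and FLRT receptor, stood at 17.2 to 18.5 CPM in cKO and 8.78 to 17.6 CPM in WT (0.49, SE 0.17), so its groups overlapped. With the summed level of non-neuronal markers as a covariate, 48 of 67 members lay above 0, with a median of 0.08, and without cKO 5 there were 50, with a median of 0.12.

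Neurexins and their ligands, which include the best known exon targets of Slm2, lay above 0 in 18 of 21, with a median of 0.12. Nrxn2 stood at 211, 227 and 218 CPM in cKO and at 167 to 203 CPM in WT, without overlap (0.21, SE 0.10, edgeR adjusted p 0.715). Nrxn3 stood at 182, 236 and 162 CPM in cKO and at 152 to 196 CPM in WT, with overlap (0.18, SE 0.11). Neither gene passed the test on total RNA. Stxbp5l, a tomosyn that restrains vesicle release and another exon target, overlapped at 69.0 to 89.5 CPM in cKO and 47.8 to 84.9 CPM in WT (0.18, SE 0.18).

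Clstn3 and Clstn1 encode calsyntenins, postsynaptic partners of neurexins. Clstn3 was at 303, 378 and 269 CPM in cKO 4, 5 and 6 and at 238 to 263 CPM in WT (log2 fold change 0.36, SE 0.11, edgeR adjusted p 0.598). Clstn1 was at 1045, 1204 and 987 CPM in cKO and at 814 to 1001 CPM in WT, with overlap (0.24, SE 0.10). Dag1, which encodes dystroglycan, was at 61.2 to 77.1 CPM in cKO and 54.6 to 61.0 CPM in WT (0.24, SE 0.10). For these genes the highest library was cKO 5. The LAR-type phosphatases and their ligands, presynaptic receptors for another set of organisers, lay above 0 in 17 of 20 (median 0.09), with 0 members at an unadjusted p below 0.05. With the share of reads outside genes as a covariate it was 13 of 20 (median 0.04).

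The presynaptic release machinery lay above 0 in 30 of 37 members, with a median of 0.10. At an unadjusted p below 0.05 there were 6, all higher (16.2%, against 3.61% of all genes), and in 8 members cKO was higher without overlap (21.6%, against 3.35% of all genes). Bsn encodes bassoon, a scaffold of the active zone, and stood at 239, 230 and 222 CPM in cKO 4, 5 and 6 against 184, 183, 169 and 170 CPM in WT 2, 3, 4 and 5. The gap between its groups was wider than the spread within either (log2 fold change 0.39, SE 0.10), and its edgeR adjusted p was 0.421. Sv2a, a vesicle glycoprotein, stood at 298 to 326 CPM in cKO and 242 to 270 CPM in WT (0.29, SE 0.09). Doc2a, a calcium sensor of spontaneous release, stood at 40.8 to 49.3 CPM in cKO and 34.6 to 41.8 CPM in WT, with overlap (0.26, SE 0.09). The most abundant member, the SNARE gene Snap25, overlapped at 3044 to 3618 CPM in cKO and 3211 to 3454 CPM in WT (0.04, SE 0.08). In SST 23 of 37 members lay above 0 (median 0.030) and in Grik 13 (median -0.034).

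Among the receptor families, AMPA receptor subunits and auxiliary proteins lay above 0 in 15 of 19 (median 0.08), and Gria1 stood at 772 to 1029 CPM in cKO and 781 to 878 CPM in WT (log2 fold change 0.03, SE 0.10). The AMPA median was 0.03 without cKO 5 and 0.02 without WT 4, and with the share of reads outside genes as a covariate it was -0.01, with 8 of 19 above 0. NMDA receptor subunits lay above 0 in 2 of 6 (median -0.03), but in 5 of 6 without cKO 4 or without WT 3 (medians 0.05 and 0.06). Grin1, the obligatory NMDA subunit, stood at 377, 498 and 356 CPM in cKO 4, 5 and 6 and at 291, 312, 350 and 342 CPM in WT, without overlap (0.34, SE 0.11, edgeR adjusted p 0.609). Kainate receptor subunits lay above 0 in 4 of 7 (median 0.0041), and metabotropic glutamate receptors in 6 of 7 (median 0.22; 0.10 without cKO 5). The median of the kainate list was -0.02 without cKO 4.

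GABA-A receptor subunits, the inhibitory chloride channels, lay above 0 in 10 of 12 (median 0.15; 0.07 without cKO 5). At an unadjusted p below 0.05 there were 3 higher and 1 lower (33.3% together, against 7.05% of all genes), and in 2 cKO was higher without overlap (16.7%, against 3.35%). Without cKO 5 there were 0 higher and 1 lower. Gabrg1, a low-abundance gamma subunit, stood at 4.82 to 6.96 CPM in cKO and 2.44 to 4.50 CPM in WT (log2 fold change 0.54, SE 0.20). Gabra2 went the other way: it stood at 58.5, 74.3 and 45.3 CPM in cKO 4, 5 and 6 and at 152, 104, 99.9 and 56.1 CPM in WT 2, 3, 4 and 5 (-0.80, SE 0.31, edgeR adjusted p 0.665). One WT library, WT 5, lay inside the cKO range for Gabra2. The scaffold of inhibitory synapses, Gphn, stood at 119 to 139 CPM in cKO and 109 to 116 CPM in WT (0.16, SE 0.07).

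Ion channel lists were spread on both sides of 0. Potassium and HCN channels lay above 0 in 39 of 52 (median 0.09), with 4 higher and 2 lower at an unadjusted p below 0.05 (11.5% together, against 7.05% of all genes). Without cKO 6 there were 0 in either direction, and without cKO 4 there were 2 higher and 1 lower. Kcnh4, a voltage-gated channel of the Elk family, stood at 2.14, 1.002 and 2.34 CPM in cKO 4, 5 and 6 and at 0.687 to 1.15 CPM in WT (log2 fold change 1.11, SE 0.42), and cKO 5 was within the WT range. Scn1a, a sodium channel of the axon's initial segment, stood at 48.4 to 54.1 CPM in cKO and 39.5 to 43.8 CPM in WT (0.27, SE 0.10). Calcium/calmodulin-dependent kinases lay above 0 in 8 of 13 (median 0.04), and Camk2a, the abundant kinase of excitatory synapses, was at 3974 to 4311 CPM in cKO and 3932 to 4175 CPM in WT (0.02, SE 0.08). Without cKO 4 the median of the kinases was -0.01. Activity-regulated genes lay above 0 in 14 of 22 (median 0.06), with Egr1 at 263 to 401 CPM in cKO and 227 to 377 CPM in WT. Their direction turned without cKO 5 (8 of 22 above 0, median -0.03) and with the share of reads outside genes as a covariate (5 of 22, median -0.09), and without cKO 4 or WT 5 the median was -0.0059 or -0.0036. Cholesterol synthesis genes lay above 0 in 16 of 18 (median 0.15; 0.05 without cKO 5), with 4 higher at an unadjusted p below 0.05 (22.2%, against 3.61% of all genes). Without cKO 5 there were 2 higher, and with the replicate block 0 higher and 1 lower.

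**Figure D3:**
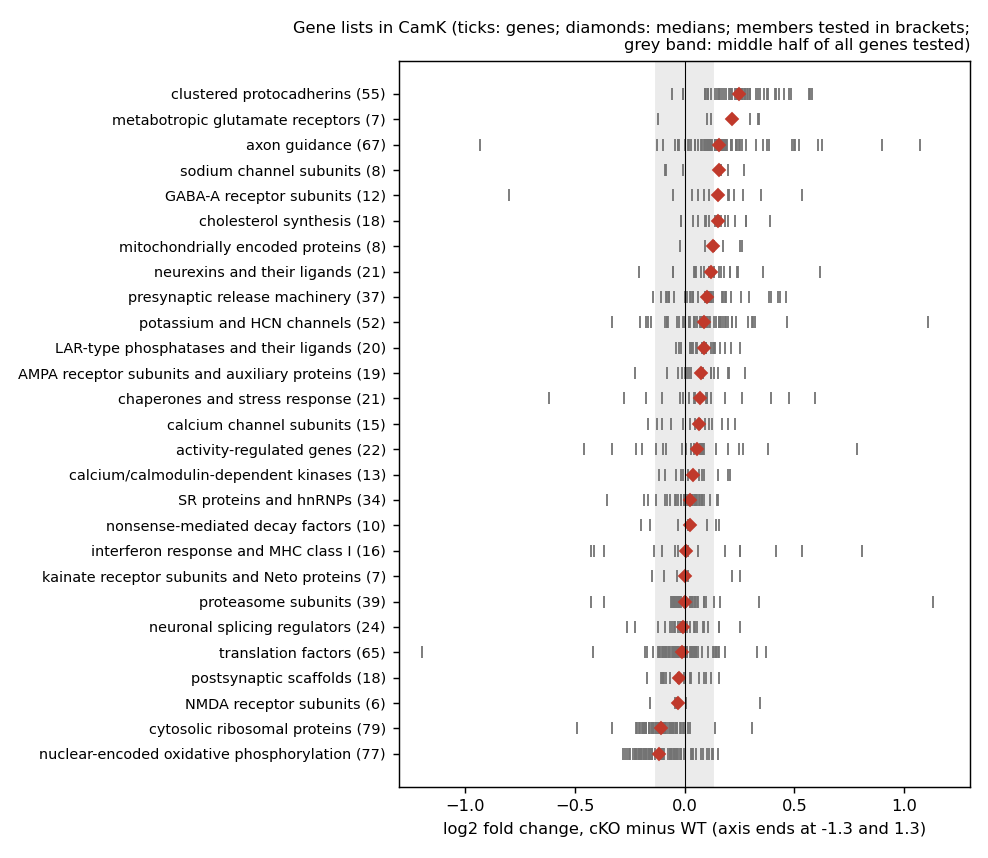
Log2 fold change (horizontal axis, cKO minus WT) of every tested member of each functional gene list (ticks), with the list's median (diamond) and the interquartile range of all genes tested (grey band). The clustered protocadherins have a median of 0.25, and the ribosomal protein and nuclear-encoded oxidative phosphorylation genes both have a median of -0.11.

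Lists of other RNA processing factors had medians near 0. Neuronal splicing regulators lay above 0 in 11 of 24 (median -0.01), SR proteins and hnRNPs in 20 of 34 (median 0.03), and nonsense-mediated decay factors in 7 of 10 (median 0.02). Their signs turned when single libraries were left out, with medians of 0.03 for the splicing regulators without cKO 6, and of -0.03 and -0.02 for the other lists without WT 5. Celf5, a CELF family regulator of splicing and RNA stability, stood at 340, 348 and 306 CPM in cKO 4, 5 and 6 and at 362, 403, 440 and 382 CPM in WT 2, 3, 4 and 5 (log2 fold change -0.26, SE 0.09, edgeR adjusted p 0.629). Celf6, its close relative, stood at 28.8 to 32.4 CPM in cKO and 33.6 to 38.8 CPM in WT (-0.23, SE 0.08). Nova1, a KH-domain splicing regulator of neurons, stood at 61.4 to 70.4 CPM in cKO and 49.6 to 58.3 CPM in WT (0.25, SE 0.10). The groups of these 3 genes did not overlap, and none of the 3 was called. Rbfox1, the most abundant of the list, overlapped at 633 to 648 CPM in cKO and 630 to 684 CPM in WT (-0.02, SE 0.06).

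Ribosomal protein and oxidative phosphorylation genes were shifted the other way by a small amount. Of 79 cytosolic ribosomal protein genes, 75 lay below 0, with a median of -0.11. At an unadjusted p below 0.05 there were 3, all lower (3.8%, against 3.44% lower over all genes). Rps27 stood at 43.4, 39.4 and 42.3 CPM in cKO 4, 5 and 6 and at 46.5, 50.5, 54.8 and 57.6 CPM in WT 2, 3, 4 and 5 (log2 fold change -0.33, SE 0.12, edgeR adjusted p 0.660). Of 77 nuclear-encoded oxidative phosphorylation genes, 66 lay below 0, with a median of -0.11, and 11 had an unadjusted p below 0.05, all lower (14.3%, against 3.44% of all genes). Ndufc1, a complex I subunit, stood at 45.0 to 51.9 CPM in cKO and 52.2 to 64.4 CPM in WT (-0.27, SE 0.10), and Cox6b1, a complex IV subunit, at 204 to 224 CPM in cKO and 230 to 264 CPM in WT (-0.20, SE 0.08). The abundant ATP synthase subunit Atp5b was on the other side, at 1828 to 1907 CPM in cKO and 1704 to 1871 CPM in WT (0.08, SE 0.07).

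The libraries that carried these shifts were not spread evenly. The median deviation of the ribosomal protein genes from their WT mean was -0.02, -0.22 and -0.07 in cKO 4, 5 and 6, and -0.09, -0.04, 0.10 and 0.03 in WT 2, 3, 4 and 5, so the groups overlapped. Without cKO 5 the ribosomal median was -0.05, with 0 of its members at an unadjusted p below 0.05, and without WT 4 it was -0.07. The oxidative phosphorylation median was -0.08 without cKO 5, with 0 members at an unadjusted p below 0.05, and -0.08 without WT 4 or WT 5, with 2 and 3 members. With the sample number as a replicate block the values moved the other way. The ribosomal and oxidative phosphorylation medians were -0.19 and -0.23, with 33 and 45 members lower at an unadjusted p below 0.05. That fit left 3 residual degrees of freedom, and 2606 of all 18823 genes had such a p in either direction. In the fit without a block, 16 of 77 oxidative phosphorylation genes had an unadjusted p below 0.05 for the difference between CamK and Grik. Over all genes 6.5% had one. The median difference of that list was -0.16, and none was called. For the ribosomal protein genes it was 0 of 79, with a median difference of -0.08.

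Gene length moved with these values. Protein-coding genes were divided by exonic length into 5 classes of equal size, with median lengths of 1739 bases in the shortest class and 9829 in the longest. The median log2 fold change was -0.077, -0.018, 0.0071, 0.030 and 0.050 from the shortest to the longest class. WT libraries differed among themselves along the same axis: in the longest class their median deviation from the WT mean ranged from -0.085 in WT 5 to 0.084 in WT 2, while cKO libraries ranged from 0.019 to 0.105. The ribosomal protein and oxidative phosphorylation genes have short transcripts, with median exonic lengths of 1770 and 1718 bases. Relative to genes of the same class their medians were -0.047 and -0.069, and that of the clustered protocadherins, with a median length of 5041 bases, was 0.23. The part of transcript length in these results was not tested.

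Long non-coding RNAs had a median below 0 as a class, while single libraries of the groups overlapped. Over all 1726 tested, the median deviation from the WT mean was -0.04, -0.12 and -0.0085 in cKO 4, 5 and 6, and -0.02, 0.02, -0.03 and 0.02 in WT 2, 3, 4 and 5. Of 435 with a mean of at least 1 CPM, 347 lay below 0 (79.8%, against 50.3% of all genes), with a median of -0.16, while protein-coding genes at the same level had a median of 0.0028. In 41 of the 435 the groups did not overlap with cKO lower (9.43%, against 3.4% of all genes), in 0 with cKO higher, and edgeR called none. Of the 40 with an unadjusted p below 0.05 (9.2%, against 7.05% of all genes in both directions), 39 were lower. Without cKO 5 the median was -0.08, with 24 lower and 3 higher at an unadjusted p below 0.05. In that fit 1023 of all 19297 genes had one, counting both directions together. Lower counts at an unadjusted p below 0.05 were 26 without WT 3 and 26 without WT 5. Over all genes, both directions together, 1382 of 18769 and 1094 of 18761 had one in those fits. Low-abundance and overlapping loci are many in this class, and reads of a gene and its antisense partner cannot be told apart without the strand setting. Over all 1726, the median was -0.15 in the 1023 that overlap a protein-coding gene and -0.18 in the 703 that do not.

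Long non-coding genes took 1.65, 1.25 and 1.46% of the reads in tested genes in cKO 4, 5 and 6, and 1.89, 2.48, 2.89 and 2.17% in WT 2, 3, 4 and 5. Most of that was a single locus, Gm42418 (chr17:39846958-39848788), chosen after its values were seen, which overlaps 2 other annotated genes and took 0.847 to 1.21% in cKO and 1.43 to 2.45% in WT. Its log2 fold change was -0.89 with an SE of 0.65 (edgeR adjusted p 0.814). Without it the share was 0.400 to 0.451% in cKO and 0.441 to 0.485% in WT. The well-known nuclear RNAs Malat1 and Meg3, also chosen after their values were seen, overlapped between the groups, at 15.9 to 39.8 CPM in cKO against 13.4 to 29.2 CPM in WT and at 22.9 to 51.5 CPM against 19.6 to 51.4 CPM.

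Reads that mapped outside annotated genes moved with the genotype labels. They made up 5.88, 5.21 and 5.50% of all reads in cKO 4, 5 and 6, and 6.47, 6.72, 7.07 and 6.87% in WT 2, 3, 4 and 5. The groups did not overlap, and the two-sided exact permutation p was 0.0571, the smallest that 3 against 4 libraries can give. In Grik and SST the genotypes overlapped in this measure. With this share as a covariate, added after the data were seen, Khdrbs2 and Khdrbs1 were still called (log2 fold changes 1.56 and 0.63). Its part in the class difference of long non-coding RNAs was not tested beyond that fit, where 333 of 435 lay below 0 with a median of -0.15.

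**Figure D4:**
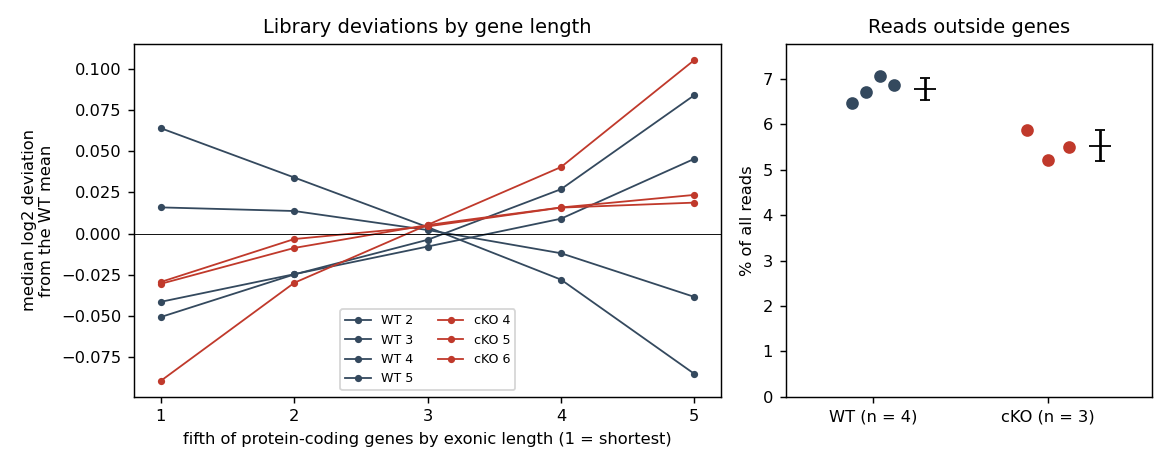
Left: median log2 deviation from the WT mean of protein-coding genes in each of 5 classes of exonic length (horizontal axis, 1 is the shortest class), 1 line per library; the WT lines fan out in both directions and the cKO lines lie within or just beyond them. Right: share of all reads outside annotated genes in percent for each library, with mean and SD beside each group; the cKO libraries lie at 5.21 to 5.88% and the WT libraries at 6.47 to 7.07%.

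The label of excitatory pyramidal cells was checked against marker lists. The pyramidal markers, summed, stood at 5744 to 6192 CPM in cKO and 5469 to 6004 CPM in WT, led by Camk2a and the vesicular glutamate transporter gene Slc17a7 (983 to 1029 CPM in cKO and 855 to 1070 CPM in WT). CA1 markers summed to 1006 to 1668 CPM in cKO and 1118 to 1531 CPM in WT, CA3 markers to 55.2 to 107 CPM against 81.5 to 96.2 CPM, and dentate gyrus markers to 183 to 330 CPM against 165 to 363 CPM. In cKO 5 the CA1 sum was the highest of all 7 libraries and the CA3 sum the lowest. Interneuron markers summed to 78.9 to 141 CPM in cKO and 46.9 to 146 CPM in WT. The genotypes overlapped in each of these lists. RNA of dentate gyrus and interneuron markers was thus present beside that of pyramidal markers, with the dentate gyrus sums above the CA3 sums. Whether it came from other cells was not tested, so the lists do not show pyramidal cells alone.

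Markers of non-neuronal cells were present and partly moved with the genotype. Astrocyte markers summed to 130, 160 and 128 CPM in cKO 4, 5 and 6 and to 81.4 to 107 CPM in WT, without overlap. Of the 10, 9 lay above 0 (median 0.48), but Aldoc made up most of the sum, and the membrane and cytoskeletal markers Aqp4, Slc1a3 and Gfap stood at 2.51 to 3.92, 6.04 to 12.6 and 4.66 to 8.09 CPM in cKO against 1.26 to 3.33, 3.38 to 7.95 and 2.61 to 5.89 CPM in WT, with overlap. Oligodendrocyte markers lay above 0 in 8 of 8 (median 0.41), with sums of 234 to 311 CPM in cKO and 159 to 242 CPM in WT. Without cKO 5 the astrocyte median was 0.23 and the oligodendrocyte median 0.22.

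Vascular markers lay above 0 in 10 of 10 (median 1.18; 0.83 without cKO 5), and 6 were higher at an unadjusted p below 0.05 (60%, against 3.61% of all genes), at very low levels. Without cKO 5 there were 3, with 9 of 10 above 0, and limma-voom gave 1. Of these markers DESeq2 called Cdh5. Flt1, a VEGF receptor of endothelium, stood at 0.826, 1.27 and 2.08 CPM in cKO 4, 5 and 6 and at 0.102 to 0.454 CPM in WT, and Cdh5, the endothelial cadherin, at 0.1004, 0.439 and 0.380 CPM in cKO and 0.0111 to 0.0770 CPM in WT. Summed, the 10 markers stood at 15.4 to 20.8 CPM in cKO and 11.9 to 15.8 CPM in WT, and most of that was the pericyte gene Rgs5, at 11.2 to 12.5 CPM in cKO and 9.92 to 12.5 CPM in WT. Microglial markers (median -0.11, 5 of 10 above 0) and choroid plexus markers (median -0.24, 0 of 6 above 0) overlapped between the groups, and both medians turned positive without cKO 4 (0.04 and 0.09). Without cKO 5 they were further below 0, at -0.56 and -1.24. In such samples more cells of a type and more RNA per cell cannot be told apart. Aldoc and Aldh1l1 are themselves members of the astrocyte list. Pygm and Aldh1l1 were highest in cKO 6, and Aldoc was highest in cKO 5. The median deviation of the astrocyte list was 0.20, 0.62 and 0.24 in cKO 4, 5 and 6. The part of non-neuronal RNA in these genes was not tested beyond a covariate fit, in which the edgeR adjusted p of Aldoc was 0.142 and its log2 fold change 0.62. In that fit Khdrbs2, Khdrbs1 and Khdrbs3 were called, with log2 fold changes of 1.63, 0.65 and -0.47.

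**Figure D5:**
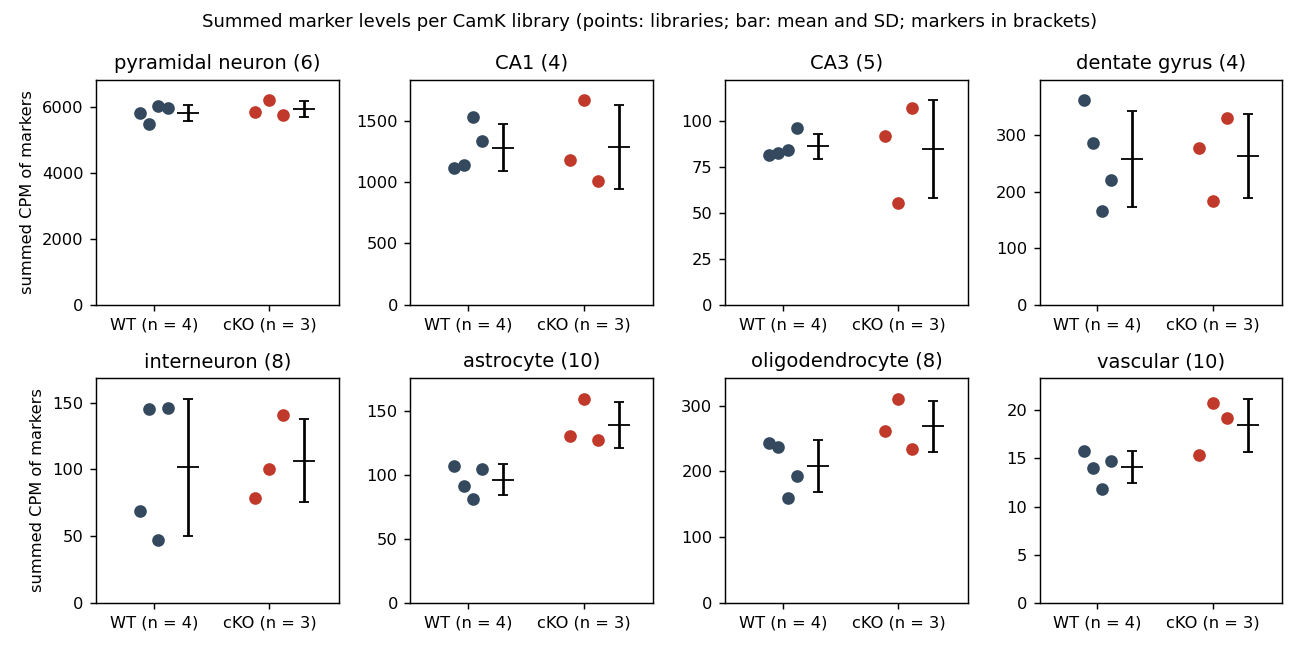
Summed CPM (vertical axis, starting at 0) of the markers of 8 cell types in each CamK library, with the number of markers in brackets; points are libraries and the bars are mean and SD. The astrocyte sum is higher in the 3 cKO libraries (128 to 160 CPM) than in the 4 WT libraries (81.4 to 107 CPM), and the other sums overlap.

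The libraries also differed in Y-linked RNA. The Y-linked genes summed to 84.6 to 92.4 CPM in WT 2, 3 and 4 and to 86.9 CPM in cKO 4, and were near 0 in WT 5, cKO 5 and cKO 6. Xist, the X-inactivation RNA, stood at 51.7 CPM in cKO 5, 8.51 CPM in cKO 6 and 3.04 CPM in WT 5. The groups were therefore unbalanced in this respect, with 1 of 3 cKO and 3 of 4 WT libraries carrying Y-linked RNA. With the Y-linked level as a covariate, added after the data were seen, Khdrbs2 and Khdrbs1 were called (adjusted p 1.24e-06 and 0.0497). With the Xist level Khdrbs2 was called and Khdrbs1 had an adjusted p of 0.0687.

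The cKO effect in CamK was set against that in the other populations by the difference of effects in the same fit. For Khdrbs3 the log2 fold change was -0.42 (SE 0.08) in CamK, 0.30 (SE 0.07) in Grik and -0.47 (SE 0.08) in SST. The difference of CamK from Grik was -0.73 (SE 0.11, edgeR adjusted p 0.0154), the 1 gene called for that difference among 18823 (0.00531%). No gene was called for it with the replicate block, with the Xist level or the Y-linked level as a covariate, or without cKO 6. The targeted gene was thus not lower in the Grik libraries labelled cKO, and its difference there was not called (edgeR adjusted p 0.499). Khdrbs2 and Khdrbs1 were called higher in those libraries (edgeR adjusted p 1.11e-10 and 0.00914). Counts over the whole gene check the label only in part, so differences from Grik are given for the libraries as labelled. For Khdrbs3 the difference of CamK from SST was 0.05 (SE 0.11). For Khdrbs2 the CamK, Grik and SST values were 1.52, 2.17 and 0.58, and CamK differed by -0.65 (SE 0.18, adjusted p 0.570) from Grik and 0.94 (SE 0.18, adjusted p 0.314) from SST. For Khdrbs1 they were 0.59, 0.56 and 0.10, and CamK differed by 0.03 (SE 0.13) from Grik and 0.49 (SE 0.13, adjusted p 0.542) from SST. No gene was called by edgeR for the difference from SST (0%), with 1477 at an unadjusted p below 0.05 (7.85%), while DESeq2 called 14 and limma-voom 1.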

How the data were processed

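RNA sequencing read counts per Ensembl gene were deposited by the authors in 1 table for all 23 libraries, without normalization. Reads were trimmed with Trimmomatic and aligned and counted with STAR on GRCm38, per the submitters' processing notes and the form of the summary rows. The sources used here do not state versions, strand setting or annotation release. The 4 summary rows, which name no gene and hold 14.3 to 17.0% of CamK reads, were left out. Of 45706 gene IDs, 45143 were found in GENCODE M21, which gave symbols and positions.

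Libraries were grouped by title. Genes kept by filterByExpr (18823) were scaled by TMM and fitted in all 23 libraries with edgeR 4.0.16 (glmQLFit, robust, and glmQLFTest, 17 residual degrees of freedom; R 4.3.3), with Benjamini-Hochberg adjustment over all genes and a threshold of 0.05. The standard error is the log2 fold change divided by the square root of F. The common biological coefficient of variation was 16.3%. CPM values use TMM scaling; deviations of single libraries use log2(CPM + 0.5).

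Alternatives were RLE scaling, no filter, DESeq2 1.42.0, limma-voom 3.58.1 with sample weights, the CamK and compared populations alone, covariates, the sample number as a block, and leaving out each library. No 2 libraries of a group were alike within sampling noise (chi-square per degree of freedom 22.2 to 78.4). On simulated counts with 200 changed genes (5 draws of 18532 to 18557 genes), genes of at least 1 CPM were recovered in 58.6 to 71.6% of cases at 1.5-fold and 80.6 to 92.3% at 2-fold, with 2.13 to 4.03% false calls.

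The comparison, lists and tests were chosen with earlier results of these data known, so lists are described and not tested. Named genes were the Khdrbs family and Qk; genes called by edgeR, DESeq2 or limma-voom (at 1 CPM or more, without predicted genes); up to 10 higher and 10 lower protein-coding genes by size (at 1 CPM or more, unadjusted p below 0.05, no overlap); in each list the 3 lowest p-values and the most abundant members; cell type markers; and exon targets of the study. Not all are printed, for length. Protein sequences were not used here. Some items are not reported here.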

Additional observations from a re-analysis of the deposited data

Results flagged for a closer look

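Among the 4 WT libraries, 1 library stood far from the other 3 in 4 of the 47 sums and levels examined, where chance would give about 2.35. WT 5 had the lowest summed level of neuronal splicing regulators, 4759 CPM against 5040 to 5080 CPM in the other WT libraries. It also had the lowest sum of SR proteins and hnRNPs, 5101 CPM against 5510 to 5586 CPM. WT 4 had the lowest sum of kainate receptor subunits and Neto proteins, 317 CPM against 340 to 341 CPM. WT 5 had 3.06 CPM of sex-linked RNA, against 84.6 to 92.0 CPM. WT 5 is also the WT library with the lowest Khdrbs1 level.

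The difference in Khdrbs3 counts between libraries labelled cKO and WT was itself different in CamK and Grik, by -0.73 on the log2 scale in the test of that difference. Counts were lower in all CamK cKO libraries, and the log2 fold change in Grik was 0.30 (SE 0.07, edgeR adjusted p 0.499). Khdrbs3 was thus not lower in the Grik libraries labelled cKO, while Khdrbs2 and Khdrbs1 were called higher there (edgeR adjusted p 1.11e-10 and 0.00914). The call for the Khdrbs3 difference was lost with the replicate block, with the Xist or Y-linked level as a covariate, and without CamK cKO 6.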

How the results depend on the processing

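Khdrbs2 was called and higher in every setting, and Khdrbs1 was higher in every setting but was not called with the sample number as a replicate block, the Xist level as a covariate, CamK fitted alone, or without cKO 4, cKO 6 or WT 5. The count of 2 calls became 16 in DESeq2, 6 in limma-voom, 5 with the replicate block, 1 with the Xist level and 1 with CamK fitted alone, 3 with RLE scaling and 3 with no filter (both adding Aldoc), 3 with the non-neuronal covariate (adding Khdrbs3), and 1 to 4 when single libraries were left out. Calls for the difference from Grik were 1 in edgeR, 11 in DESeq2, 0 with the replicate block, 0 with the Xist level, 0 with the Y-linked level, and 0 to 2 without single libraries. For the difference from SST they were 0 in edgeR, 14 in DESeq2, 1 in limma-voom, 3 with the replicate block and 1 with the non-neuronal covariate. The cause of these shifts was not tested. Numbers 4 and 5 occur in both genotypes, and deviations of same-numbered CamK samples correlated at 0.085 and 0.0074. What a shared number means is not stated in the sources used here, and so few pairs cannot decide whether the samples were paired. RLE scaling moved the median of all genes from -0.0014 to 0.0054. Of the named genes, 20 results in single settings moved past the threshold, 6 fell short of it (all Khdrbs1), and none that was called changed sign. On simulated counts of this size 58.6 to 71.6% of 1.5-fold changes were recovered at 1 CPM or more, and smaller changes were not simulated.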
